A study of Mus musculus with 18 samples.

Results

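Sorted epidermal cells of papillomas from mice without Zfp36 in the epidermis were compared with the same kind of cells from mock skin of that genotype. The comparison held 5 distinct RNA-seq libraries of the 17 distinct libraries in the series, 3 from tumors and 2 from mock skin. The members were all genes with enough counts for the test, 15027 of the 52636 in the table. All mice of the comparison were C57BL/6 and carried floxed Zfp36 alleles together with a Cre under the human keratin 14 promoter (Zfp36 ΔK14 in the labels, ΔEP in the study), so mock cells and tumor cells had both lost the gene in keratin 14 lineages only, and other cells of the mouse kept it. Tumors followed DMBA, a mutagen, and repeated TPA, a phorbol ester that promotes tumor growth, on shaved back skin. Mock skin came from mock-treated animals, whose vehicle was not given for these samples. Littermates with floxed alleles and no Cre (fl/fl) gave the matching tumor and mock groups of 3 libraries each. The study's methods describe cells sorted as EpCAM+ and negative for CD45, CD140a and CD31, whereas the labels name whole skin as the source. Nothing in the labels says whether the replicates came from separate mice, so the p-values measure the spread between these samples.

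Zfp36 encodes tristetraprolin, a zinc-finger protein that binds AU-rich elements in 3′ untranslated regions (3′UTRs) and speeds deadenylation and decay of those mRNAs. Many transcripts for cytokines, growth factors and proteases carry such elements. In the DMBA/TPA model, DMBA typically leaves an activating mutation in Hras, and TPA drives outgrowth of the initiated keratinocytes through protein kinase C, EGF receptor ligands and the AP-1 transcription factors. Papillomas that arise this way keep a basal layer, thicken the suprabasal layers and turn on keratins and envelope proteins that normal interfollicular epidermis makes only after wounding.

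Total counts ran from 2973405 to 3569609 in the mock libraries and from 5412205 to 7069660 in the tumors, and mitochondrial genes took 7.07% to 10.4% and 6.15% to 6.65% of them. The column of mock replicate 3 was identical to that of replicate 2 and was counted with it, which left n = 2. The mock libraries stood apart from each other: 27.1% of 9411 well-measured genes differed more than 2-fold between them, against 1.32% to 4.65% between any pair of tumors. Mock replicate 1 was rich in transcripts of growing hair, with 577.5 CPM (read counts scaled to a common library size) of the inner root sheath keratin Krt25 against 1.62 CPM in replicate 2, and 726.5 against 74.6 CPM of the proliferation gene Mki67. It was poor in Krt5, at 1319 against 6697 CPM. The summed keratinocyte markers came to 6273 and 20570 CPM in mock and 24730 to 25360 CPM in tumors, so the labelled cell type was present throughout. Summed fibroblast markers came to 947.4 and 950.2 CPM in mock and 33.8 to 355.8 CPM in tumors, of which decorin (Dcn) alone gave 882.6 CPM in mock replicate 1. Melanocyte markers lay at 324.2 and 41.0 CPM in mock and 14.4 to 33.9 CPM in tumors, and endothelial markers at 13.7 to 33.5 CPM in all 5. Muscle markers summed to 40.6 and 16.2 CPM in mock and 37.4 to 63.9 CPM in tumors, and 1 of the 3 tested, Myh11, fell. Sweat gland and Merkel cell markers summed to 1.71 and 0.969 CPM in mock and 17.7, 10.8 and 7.13 CPM in tumors, their 1 tested gene, Piezo2, rose, and Atoh1 was at 0 in all 5. Of 17 leukocyte markers, Ptprc stayed at or under 1.21 CPM and Mcpt4 at 0. The list summed to 14.2 and 39.7 CPM in mock and 537.7 to 796.7 CPM in tumors. S100a8, which stressed keratinocytes also make, gave most of the tumor sums (703.3, 684.5 and 475.4 CPM). In mock skin S100a8 was at 0.979 and 0 CPM, so other markers of the list made up those sums. Cd74, the invariant chain of MHC class II, was the other leukocyte marker that rose, with 6.85 and 12.9 CPM in mock and 72.1, 58.5 and 45.8 CPM in tumors. The part that these other cells played in the results was not tested, and in sorted bulk RNA fewer cells of a type and less RNA per cell cannot be told apart.

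The targeted gene was low in all 5 libraries. Zfp36, on GRCm38 chr7:28376784-28380253, minus strand, had 15.7 and 34.6 CPM in mock skin and 16, 10.8 and 8.40 CPM in tumors. These ranges overlap, and the log2 change of -1.10 ± 0.45 (SE) was not called (adjusted p = 0.135). The fl/fl libraries are given on the common scale of the 17 libraries. Against the scale of the 5 it shifts tumor-minus-mock log2 changes by a median of 0.09, and CPM levels differ too. There, the fl/fl mock libraries had 152.1, 715.7 and 622.0 CPM. The fl/fl tumors had 230.8, 176.7 and 242.2 CPM, and all 17-library fl/fl values lay above every ΔK14 library. The paralogs, which bind the same elements, were not called either. Zfp36l1 changed by -0.49 ± 0.31 and Zfp36l2 by -0.23 ± 0.39 in log2, and Zfp36l3 had no count in any of the 5 libraries. Of 9 tested genes for proteins that bind AU-rich elements, none was called in either direction at this threshold. Elavl1, which protects such mRNAs, was among them and changed by 0.44 ± 0.31. Over all tested genes 14.3% were called, and 9 genes are few to set against that share.

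Between ΔK14 mock skin and ΔK14 tumors 2144 genes changed, 14.3% of those tested, at an adjusted p under 0.05 in edgeR's quasi-likelihood test with Benjamini-Hochberg adjustment and a fold change over 2. They split almost evenly, with 1059 higher in tumors (7.05%) and 1085 lower (7.22%), and their median absolute log2 change was 2.32. At an unadjusted p under 0.05 the count was 5171. By the fitted changes 111 genes rose and 42 fell more than 64-fold, while 640 rose and 676 fell more than 4-fold. These counts do not use the bounds given below for genes without counts in 1 group. Of the 1059, 60 had no count in either mock library, and of the 1085, 8 had none in any tumor. In all 2144 the mock and tumor values did not overlap, as also held for 52.5% of all tested genes. The count rested on the few libraries: it was 4573 and 3585 without mock replicates 1 and 2, and 406, 101 and 216 without tumor replicates 1, 2 and 3. These 5 fits, always given below in that order, shared 97 called genes, 80 higher and 17 lower, and where they leave a single mock library it is assumed to vary like the tumors. Since the fits without a tumor lost most calls, a call named below as lost is one lost without a mock library. Counts by list are to be read against 7.05% higher and 7.22% lower, and those from these fits against each fit's own total. All CPM below are on the scale of the 5 libraries unless stated, log2 changes are tumor minus mock with their SE, and the median over all tested genes was -0.06.

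**Figure D1:**
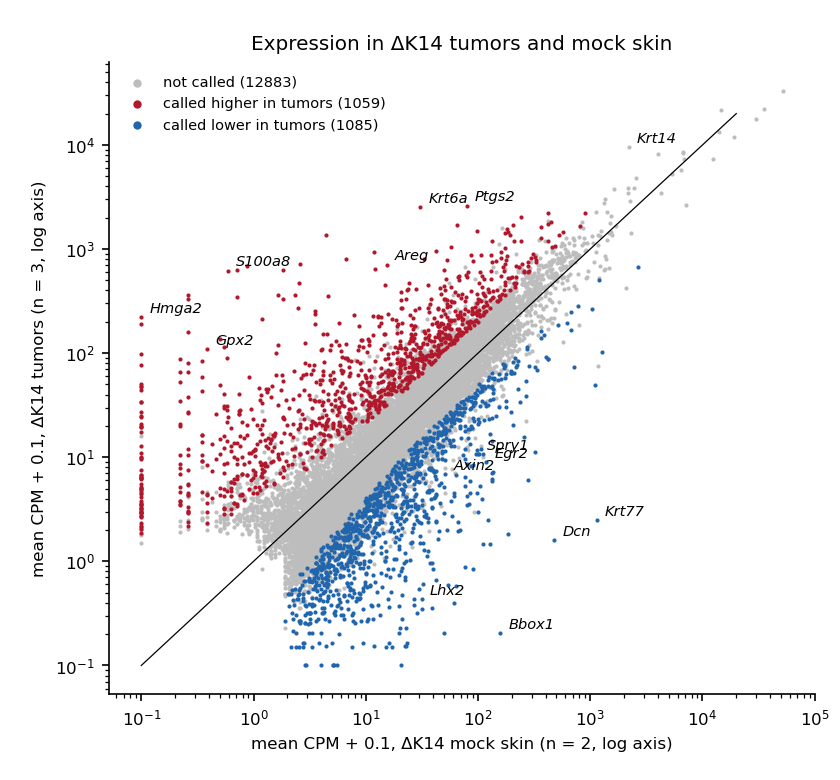
Each point is 1 of the 15027 tested genes, at its mean CPM in ΔK14 mock skin (n = 2, x axis) and in ΔK14 tumors (n = 3, y axis), both with 0.1 added and on log axes. Red and blue points are the 1059 genes called higher and the 1085 called lower, gray points were not called, and the line marks equal levels. Krt6a lies far above the line and Dcn far below it.

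**Figure D2:**
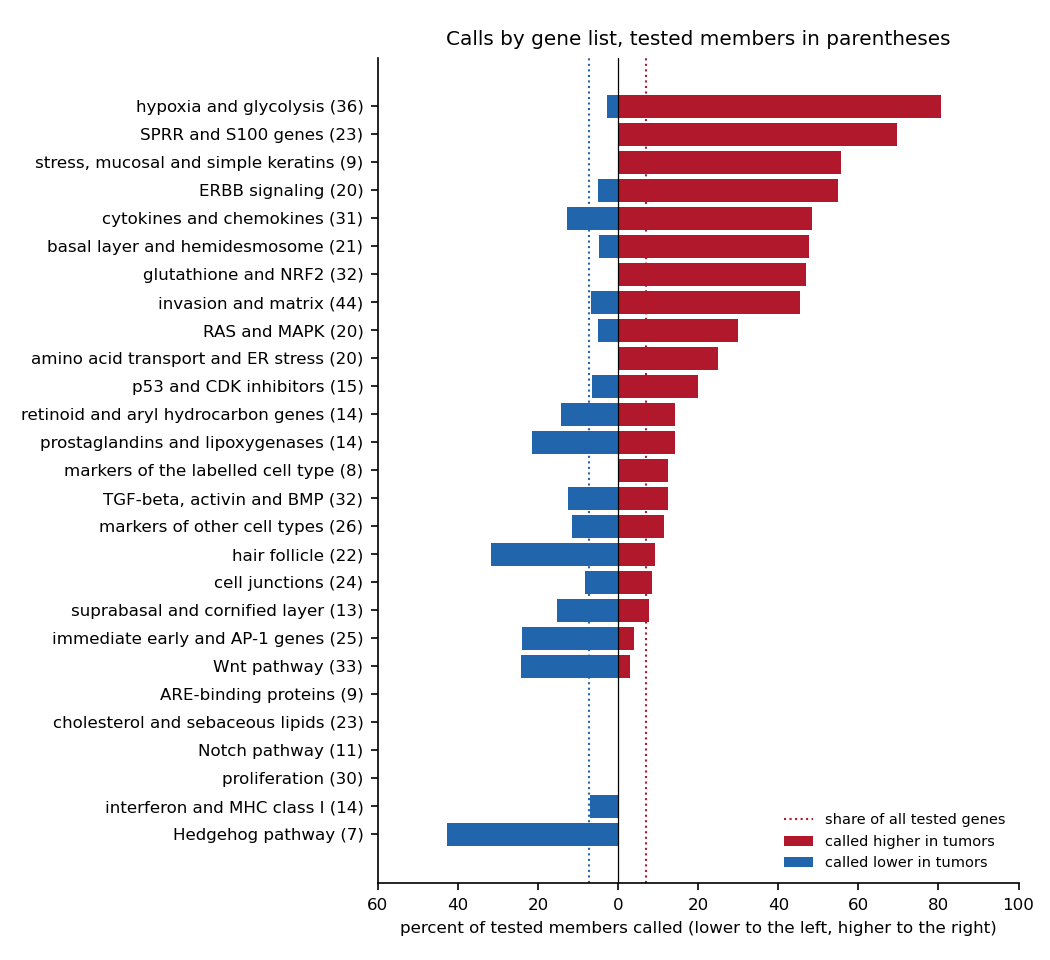
Bars give the percent of the tested members of each gene list (number in parentheses) that were called higher in tumors, to the right in red, or lower, to the left in blue. Dotted lines mark the shares over all tested genes, 7.05% higher and 7.22% lower. The hypoxia and glycolysis list reaches farthest to the right, with 29 of 36 higher, and the Hedgehog list farthest to the left, with 3 of 7 lower.

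Stress keratins are made in wounded and hyperproliferative epidermis. All 4 rose, with a median log2 change of 5.52. Krt6a had 34.3 and 26.8 CPM in mock skin and 2541, 2597 and 2447 CPM in tumors (log2 change 6.37 ± 0.35, adjusted p = 0.00349). Its near copy Krt6b went from 6.36 and 17.1 CPM to 931.4, 1107 and 751.4 CPM. Their partner Krt16 changed by 4.73 ± 0.65 and Krt17, which hair follicles also make, by 1.81 ± 0.37. Tumor libraries sat close together for these genes and far above both mock libraries. Among mucosal and simple keratins Krt18 rose (1.96 and 0 CPM in mock, 17.2, 28.8 and 15.4 CPM in tumors), and Krt13, the classic marker of advanced papillomas, was high in 1 tumor only, with 0.734 and 4.20 CPM in mock and 42.4, 4.85 and 5.39 CPM in tumors (adjusted p = 0.162). The list of stress, mucosal and simple keratins thus had 5 of 9 members higher and none lower, and 6, 5, 3, 2 and 3 higher in the leave-one-out fits. Krt6a and Krt6b were called in all 5 of them.

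Small proline-rich (SPRR) proteins are cross-linked into the cornified envelope, and their genes lie in 1 cluster on chromosome 3. All 12 that were tested rose, and Sprr3 and Sprr4 had too few counts. Sprr1b went from 0.489 and 0.323 CPM to 119, 156.2 and 136.8 CPM, which is 3 counts in mock against 2511 in tumors and a ratio of 332 (95% interval 114 to 1612, for counting error only). Sprr2d went from 0.245 and 0 CPM to 68.1, 125.9 and 68.3 CPM, a ratio of 641 (115 to 25340) over 1 mock count. Sprr2h had no mock count and 21.4, 48.3 and 30.8 CPM in tumors, at least 80.2-fold higher with a floor of 3 counts over the mock group. The corresponding bounds were at least 46.9-fold for Sprr2e, 41.8-fold for Sprr2f, 23.4-fold for Sprr2k and 4.24-fold for Sprr2b. Sprr1a was the one member with appreciable mock expression, 21.3 and 16.2 CPM, and it reached 110.7, 261.3 and 173.7 CPM. Reads of Sprr2a1, Sprr2a2 and Sprr2a3 cannot be assigned with certainty, because these copies are near identical.

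The S100 genes of the same chromosome changed unevenly. S100a8 and S100a9, which form the antimicrobial heterodimer calprotectin, had 0.979 and 0 CPM and 1.22 and 0 CPM in mock skin. In tumors they had 703.3, 684.5 and 475.4 CPM and 661.5, 745.9 and 465.9 CPM, for log2 changes of 10.09 ± 0.76 and 9.79 ± 0.80 (adjusted p = 0.00461 for each). S100a6 rose by 2.36 ± 0.33, and S100a7a rose at a very low level, from 3 mock counts to at most 4.28 CPM in tumors, a ratio of 7.54 (2.45 to 37.7). The remaining 7, S100a10 and S100a11 among them, were not called. In the SPRR and S100 list 16 of 23 genes were called higher and none lower, and its median log2 change was 5.44, or 4.55 with the genes without mock counts placed at their bounds. The leave-one-out fits gave 16, 19, 9, 6 and 9 higher, and Sprr1b, Sprr2d, Sprr2g, Sprr2h, S100a8 and S100a9 were called in all 5.

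Several SPRR promoters and, as described further on, a group of protease promoters hold the AP-1 heptamer. It was searched as TGACTCA or TGAGTCA, each the reverse complement of the other, in RefSeq windows from 250 bases before to 50 after each start on GRCm38. The sequences are shown because they place the heptamer in genes of both clusters that were called higher, and each is written on its gene's strand with the heptamer in capitals.
Sprr1a, chr3:92486010-92486039, minus strand: cataactaaagcTGAGTCAgagggtgaact
Sprr2d, chr3:92338935-92338964, plus strand: ttgagtgctcacTGAGTCAcaggtctcaac
Sprr2e, chr3:92351938-92351967, plus strand: gtgagtgctcacTGAGTCAcaggtctcaac
Sprr2h, chr3:92385475-92385504, plus strand: agggatggtctcTGAGTCActgcactttac
Mmp3, chr9:7445764-7445793, plus strand: tggaagcaattaTGAGTCAgttttcgggtg
Mmp10, chr9:7502267-7502296, plus strand: atagcacccatgTGAGTCAtgcttagtgac
Mmp12, chr9:7347318-7347347, plus strand: tgacatcaacagTGAGTCAgatagaggatt
Mmp13, chr9:7272467-7272496, plus strand: accccaaagtggTGACTCAtcactatcatg
The heptamer lay 193 to 198 bases before the start in Sprr2d, Sprr2e and Sprr2h and 35 to 63 bases before it in the 4 plus-strand protease genes. Over all genes with a window it was present in 7.07% of 920 windows of genes called higher, 5.57% of 736 of genes called lower and 4.0% of 12511 of tested genes. This is a description of letters and was not tested, and it says nothing of occupancy.

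Of 13 tested suprabasal and cornified-layer genes, 1 rose and 2 fell, with a median of -0.71. Over all tested genes 7.05% rose and 7.22% fell. Krt77, a keratin of the suprabasal layers and sweat ducts, fell from 262.8 and 2021 CPM to 1.74, 1.82 and 3.65 CPM (log2 change -8.87 ± 0.99, adjusted p = 0.00709). Cst6, the cystatin that restrains cathepsins of the stratum corneum, fell from 26.9 and 56.5 CPM to 3.66, 4.85 and 4.597 CPM. Tgm1, the transglutaminase that cross-links SPRR proteins, rose from 9.05 and 3.88 CPM to 44.0, 48.8 and 46.5 CPM. Krt10, the main suprabasal keratin, had 348.7 and 3817 CPM in mock and 493.4, 484.2 and 299.8 CPM in tumors and was not called (adjusted p = 0.105). All 3 tumors lay between the mock libraries for its partner Krt1, and for Krt10 tumor replicate 3 lay below both. Loricrin (Lor), filaggrin (Flg) and 8 others of the list had too few counts. The leave-one-out fits called 3, 4, 0, 0 and 0 of the list higher and 7, 2, 0, 0 and 1 lower.

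Integrins rose as a group, whereas none of 5 basal keratins and regulators was called higher. These receptors anchor basal cells to laminin and other matrix, and all 8 in the list were called higher, with a median log2 change of 2.56. Itgb1, the common partner of several alpha chains, went from 158.6 and 190.9 CPM to 1112, 1497 and 1655 CPM (log2 change 3.02 ± 0.32, adjusted p = 0.00674). Itga5, its partner for fibronectin, went from 9.30 and 6.14 CPM to 81.6, 225.8 and 397.3 CPM. The hemidesmosomal pair Itga6 and Itgb4 changed by 2.03 ± 0.48 and 2.53 ± 0.61. Of the laminin that this pair binds, the chain Lama3 (2.97 ± 0.57) was called as well, while Lamb3 had 20.6 and 168.9 CPM in mock and 282.5, 601.5 and 656.8 CPM in tumors and missed the threshold (adjusted p = 0.101). Krt14 had 606.6 and 3790 CPM in mock and 9459 to 9637 CPM in tumors. All tumors thus lay above both mock libraries, without a call (adjusted p = 0.0909). Krt15, a keratin of resting basal and bulge cells, was the one member to fall, from 260.1 and 2273 CPM to 178.9, 65.3 and 60.2 CPM, and its call was lost without mock replicate 2. In all, 10 of 21 basal and hemidesmosome genes were called higher, and 13, 17, 2, 0 and 2 in the leave-one-out fits.

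**Figure D3:**
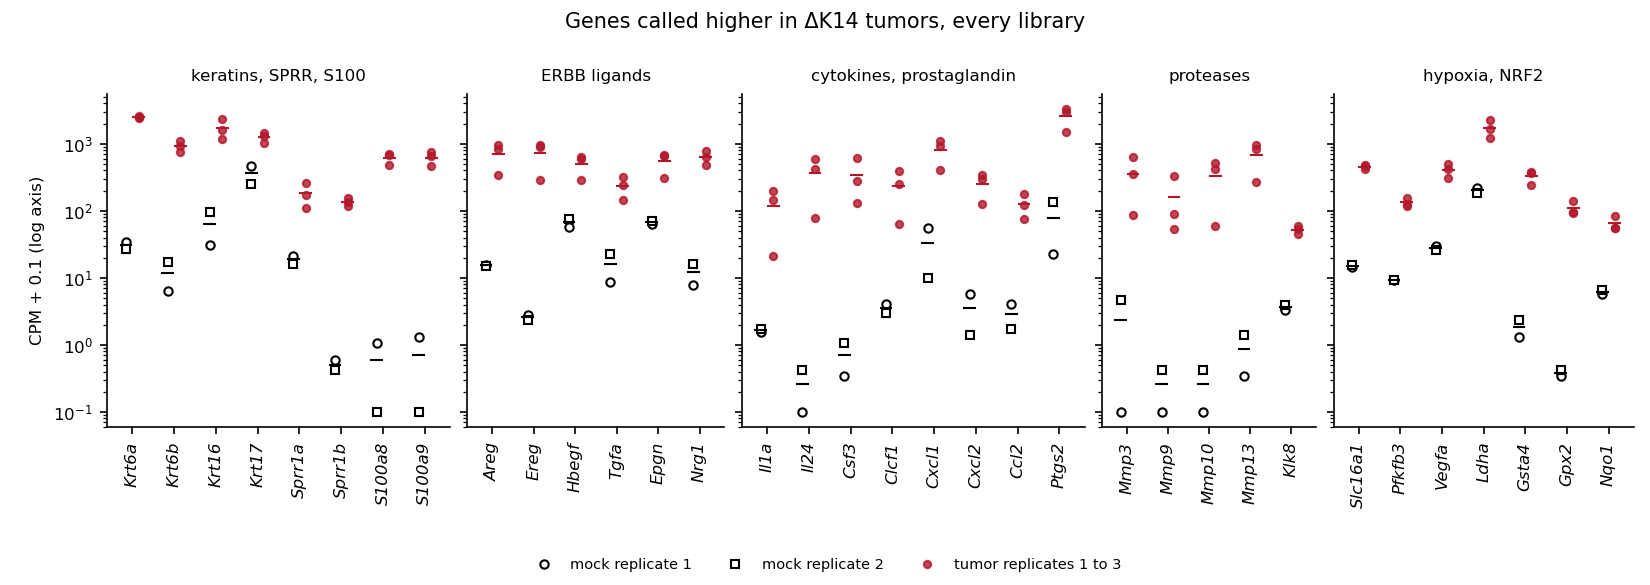
CPM plus 0.1 (y axis, log) in each of the 5 ΔK14 libraries for genes called higher in tumors (x axis, grouped by kind). Open symbols are the mock libraries (circle for replicate 1, square for replicate 2), red points the tumors, and short lines the group means. For every gene shown, as for every gene called higher, all 3 tumors lie above both mock libraries.

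Ligands of the ERBB receptors, the EGF receptor family that drives keratinocyte growth, were called higher in 8 of 9 cases, with a median log2 change of 3.03. Ereg (epiregulin) went from 2.69 and 2.26 CPM to 290.6, 964.0 and 900.9 CPM (log2 change 8.16 ± 0.77, adjusted p = 0.00563). Areg (amphiregulin) went from 15.4 and 15.2 CPM to 348.2, 823.2 and 956.9 CPM (5.53 ± 0.57, adjusted p = 0.00631). Tumor replicate 1 had less than the other tumors for both. Nrg1, the neuregulin that binds ERBB3 and ERBB4, went from 7.83 and 16.2 CPM to 483.6, 633.8 and 793.4 CPM. Tgfa changed by 3.92 ± 0.58, Epgn by 3.03 ± 0.43, Nrg2 by 3.03 ± 0.41, Hbegf by 2.92 ± 0.44 and Btc, at a low level, by 2.60 ± 0.63. Nrg4 was the exception at -1.08 ± 0.35 (adjusted p = 0.079). The receptors were not called: Egfr had 311.7 and 277.8 CPM in mock and 223.5, 325.1 and 298.8 CPM in tumors, and Erbb2 and Erbb3 changed by -0.91 ± 0.31 and -0.21 ± 0.31. Of the proteases that release the ligands, Adam10 (1.12 ± 0.26) and Adam12 (0 and 1.29 CPM in mock, 25.6, 41.2 and 16.3 CPM in tumors) rose, and Adam17 did not pass the test. Of the feedback inhibitors Socs5 rose by 1.53 ± 0.30, and Lrig3 fell from 86.6 and 82.4 CPM to 19.7, 11.2 and 8.72 CPM. Over the whole list of 20, 11 were higher and 1 lower, and 11, 12, 6, 3 and 3 were higher in the leave-one-out fits, in which Areg, Ereg and Nrg1 were called throughout.

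Downstream of these receptors, 6 of 20 RAS and MAPK genes were called higher and 1 lower. Rras2, a RAS relative, changed by 1.83 ± 0.30, while Hras, the usual target of DMBA, had 85.4 and 87.5 CPM in mock and 133.2, 93.8 and 108.1 CPM in tumors and was not called. The MAP kinase phosphatase Dusp4 went from 9.30 and 4.52 CPM to 69.6, 94.1 and 92.9 CPM (log2 change 3.61 ± 0.40), and Dusp5 and Dusp7 rose less. The feedback inhibitors split. Spry2 rose by 1.86 ± 0.39, and Spry1 fell from 81.0 and 120.8 CPM to 10.6, 11.2 and 9.83 CPM (log2 change -3.25 ± 0.28, adjusted p = 0.00461), a call held in all 5 leave-one-out fits. Those fits gave 11, 7, 2, 0 and 1 genes of the list higher.

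Immediate early genes, which cells induce within minutes of stimulation or of tissue handling, tended the other way, with 6 of 25 lower, 1 higher and a median of -0.75. Egr2 fell from 102.3 and 134.0 CPM to 8.87, 7.73 and 10.2 CPM (log2 change -3.72 ± 0.27, adjusted p = 0.00461) and Egr1 from 836.8 and 1245 CPM to 227.5, 281.3 and 282.3 CPM. Ier2 fell by 1.63 ± 0.28, Btg2 by 1.94 ± 0.47, Atf3 by 1.44 ± 0.33 and Jun by 1.24 ± 0.30. The one that rose was Ier3, from 135.8 and 131.1 CPM to 380.2, 855.9 and 1028 CPM. Among AP-1 subunits, Fosl1 had 109.4 and 160.8 CPM in mock and 237.1, 351.0 and 431.3 CPM in tumors and missed the threshold (adjusted p = 0.0516), and Fos had 933 and 1810 CPM in mock and 770.2 to 823.6 CPM in tumors (adjusted p = 0.144). Jun, Atf3 and Btg2 lost their calls without mock replicate 2, and the leave-one-out fits called 12, 4, 1, 1 and 1 of the list lower.

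Of 31 cytokine and chemokine genes, 15 rose and 4 fell, with a median of 2.57. The IL-20 family neighbors Il19 and Il24 on chromosome 1 were all but silent in mock skin. Il24 had 0 and 0.323 CPM there and 78.3, 428.1 and 585.7 CPM in tumors, a ratio of 2750 (493 to 108600) over 1 mock count, and Il19 had no mock count and 33.2, 112.9 and 144.9 CPM, at least 232-fold higher. Csf3, which mobilizes neutrophils, went from 0.245 and 0.969 CPM to 131.7, 279.9 and 615.7 CPM. Pgf, the placental growth factor, had no mock count and 18.1, 33.8 and 48.5 CPM in tumors, at least 80.2-fold higher. In each of these tumor replicate 1 was the lowest and replicate 3 the highest. The neutrophil attractants of the chromosome 5 cluster rose together: Cxcl1 from 56.0 and 10.01 CPM to 410.5, 920.6 and 1093 CPM, Cxcl2 by 6.14 ± 0.77, and Cxcl3 from 1 mock count to 46.5, 45.6 and 105.4 CPM, a ratio of 479 (85.8 to 18940). Ccl2, which attracts monocytes, changed by 5.44 ± 0.60, Clcf1 and Lif of the IL-6 family by 6.10 ± 0.92 and 3.44 ± 0.53, Il1a by 6.26 ± 1.13 and Il36g (Il1f9 in the table) by 4.76 ± 0.77. Tnf, the best known target of tristetraprolin, had 29.1 and 3.55 CPM in mock and 47.4, 107.6 and 190.4 CPM in tumors and was not called (adjusted p = 0.0853). Without mock replicate 1 its adjusted p was 0.0046.

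The 4 that fell were chemokines and a receptor. Ccl27a, which keratinocytes use to draw T cells, went from 20.8 and 113.0 CPM to 0.964, 2.12 and 2.54 CPM (log2 change -5.11 ± 0.77), Cxcl12 from 35.0 and 20.03 CPM to 3.28, 3.94 and 2.38 CPM, and Cxcl14 and the decoy receptor Il1r2 changed by -2.32 ± 0.55 and -3.62 ± 0.75. The 5 leave-one-out fits gave 16, 18, 12, 3 and 10 genes of the list higher and 6, 3, 0, 0 and 0 lower. Cxcl3, Cxcl5 and Ccl2 were called in all of them.

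Several of the secreted signals carry the nonamer TTATTTATT in the longest annotated 3′UTR, a sequence class that tristetraprolin binds. The core heptamer TATTTAT lies within this nonamer, and both were searched on the sense strand only. Windows of 30 bases from GRCm38 around the nonamer, in capitals, are shown for a group of ligands and enzymes that were called higher and, for contrast, for Wnt3, which was called lower.
Areg, chr5:91148381-91148410, plus strand: atatttaagtgTTATTTATTttatagctca
Ereg, chr5:91093575-91093604, plus strand: gttgtcagtttTTATTTATTttttgttagg
Tgfa, chr6:86272433-86272462, plus strand: ggatgcgtgtcTTATTTATTagatggataa
Cxcl1, chr5:90892614-90892643, plus strand: tatttatgtatTTATTTATTccacaaagtg
Cxcl2, chr5:90905315-90905344, plus strand: tgagagttcacTTATTTATTtatctatgta
Vegfa, chr17:46017166-46017195, minus strand: tttgttatcatTTATTTATTggtgctactg
Pfkfb3, chr2:11472044-11472073, minus strand: agatgtgctatTTATTTATTtaatatgtat
Ptgs2, chr1:150105789-150105818, plus strand: actgaccatatTTATTTATTtatgtgaaga
Wnt3, chr11:103817878-103817907, plus strand: ttttataaataTTATTTATTatacaatgta
Cxcl2 has 4 such nonamers, Inhba and Fst have 3 each, and Areg has 1 in a 3′UTR of 253 bases. Genes not called higher also carry several, with 10 in Skint7 (called lower) and 8 and 5 in Elavl1 and Tnf (not called). The nonamer was present in 8.92% of the 931 genes called higher that have an annotated 3′UTR, in 8.18% of 685 called lower and in 8.25% of 12007 tested. The heptamer was present in 34.8%, 34.9% and 30.9%, with median 3′UTR lengths of 1399, 1512 and 1375 bases. Both groups of this comparison lacked Zfp36, so these shares describe the tumor change within 1 genotype, and no test was run on them.

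In the invasion and matrix list 20 of 44 genes rose and 3 fell, with a median of 2.62. Mmp13, the main collagenase of mouse skin tumors, went from 0.245 and 1.29 CPM to 272.8, 963.1 and 837.8 CPM (log2 change 9.87 ± 0.99, adjusted p = 0.00608). Stromelysin-2 (Mmp10) had 1 mock count against 58.6, 422.2 and 510.1 CPM in tumors, a ratio of 2504 (449 to 98930), and the gelatinase Mmp9 had 53.02, 90.5 and 332.3 CPM, a ratio of 1178 (211 to 46550). Mmp3 went from 0 and 4.52 CPM to 86.2, 348.5 and 639.8 CPM. Tumor replicate 1 was the lowest tumor for all 4 of these genes. Mmp1b had no mock count and was at least 57.9-fold higher, and its neighbor Mmp1a, at 1.16, 6.97 and 11.6 CPM in tumors and none in mock, was not called (adjusted p = 0.0544). The membrane-bound Mmp14 rose by 1.13 ± 0.27 only. Of kallikreins, which cleave desmosomes in the stratum corneum, Klk8, Klk10 and Klk13 rose (3.89 ± 0.33 for Klk8) and Klk5 fell, from 2.20 and 4.20 CPM to at most 0.159 CPM.

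Protease inhibitors and adhesion genes of the list moved in both directions. Serpine2 and Slpi rose by 5.11 ± 0.69 and 5.70 ± 0.86. Serpinb3a had no mock count and 95.6, 81.8 and 53.4 CPM in tumors, at least 184-fold higher. Timp3 fell from 315.9 and 91.4 CPM to 32.0, 12.3 and 16.3 CPM. Hmga2, a chromatin protein of embryonic and invasive cells, had no mock count and 84.1, 258.5 and 322.4 CPM, at least 531-fold higher. Cd44 and podoplanin (Pdpn), surface proteins of migrating keratinocytes, changed by 2.41 ± 0.30 and 2.83 ± 0.34. Markers of epithelial to mesenchymal transition were not called: Vim had 24.2 and 47.5 CPM in mock and 28.7 to 41.8 CPM in tumors, Cdh1 275.0 and 830.4 CPM against 526.2 to 712.6 CPM, and Snai1, Snai2, Zeb2 and Twist1 all missed the threshold. Fibronectin (Fn1) fell, from 143.1 and 49.7 CPM to 15.4, 13.5 and 3.33 CPM. The leave-one-out fits gave 24, 30, 15, 5 and 9 genes higher and 6, 4, 0, 0 and 0 lower.

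Glycolysis and hypoxia-response genes formed the list with the highest share of calls, 29 of 36 higher (median 2.75) against 7.05% of all genes. The lactate exporter Slc16a1 went from 14.2 and 15.5 CPM to 488.6, 413.7 and 466.5 CPM (log2 change 4.94 ± 0.30, adjusted p = 0.0039), the fourth smallest p of any gene, and Slc16a3 changed by 5.27 ± 0.66. The glucose transporter Slc2a1 went from 43.3 and 129.8 CPM to 936.1, 749.7 and 950.0 CPM. Between import and export, Hk2, Pfkl, Tpi1, Pgk1, Pgam1, Eno1, Pkm and Ldha changed by 2.46 to 3.08 in log2, with Ldha at 220.2 and 187.0 CPM in mock and 2250, 1208 and 1637 CPM in tumors. Pfkfb3, which makes the allosteric activator of phosphofructokinase, went from 9.05 and 9.04 CPM to 155.0, 127.8 and 117.8 CPM (3.88 ± 0.30). The neuronal glucose transporter Slc2a3 was the exception, at 2.20 and 2.26 CPM in mock and at most 0.476 CPM in tumors, and its call was lost without either mock library.

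Other hypoxia genes followed, with 14 of 16 higher. Hif1a, the oxygen-regulated subunit of the hypoxia factor, went from 155.6 and 232.9 CPM to 1371, 1316 and 1362 CPM (adjusted p = 0.00709). Vegfa, the vascular growth factor, went from 29.6 and 25.8 CPM to 312.7, 419.9 and 498.6 CPM (3.89 ± 0.34). Ero1l, an oxidase of disulfide formation in the endoplasmic reticulum, went from 25.7 and 19.7 CPM to 321.6, 289.0 and 374.3 CPM. Carbonic anhydrases, which handle the acid load, rose in 3 of 4 cases, with Car2 from 2.20 and 0 CPM to 188.8, 226.1 and 230.0 CPM. Bnip3 had 2.69 and 20.7 CPM in mock and 50.0 to 92.9 CPM in tumors and missed the threshold (adjusted p = 0.0641). The list kept the most calls when libraries were left out, with 31, 33, 17, 11 and 16 higher, and Pfkfb3, Tpi1, Pgk1, Eno1, Pkm, Ldha, Slc16a1, Slc16a3, Vegfa, Ero1l and Car12 were called in every one of those fits.

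Antioxidant genes rose in 15 of 32 cases and none fell (median 1.25). Several are known targets of the transcription factor NRF2, whose own gene Nfe2l2 changed by 1.18 ± 0.28. Gpx2, a glutathione peroxidase of proliferating epithelia, had 0.245 and 0.323 CPM in mock and 97.2, 93.8 and 137.8 CPM in tumors, a ratio of 395 (109 to 3267) over 2 mock counts. Gsta4, which conjugates lipid peroxidation products, went from 1.22 and 2.26 CPM to 364.0, 243.8 and 382.7 CPM (log2 change 7.58 ± 0.48, adjusted p = 0.00396). Gsto1 went from 49.2 and 64.6 CPM to 1093, 871.8 and 1158 CPM. Nqo1, Akr1b8, Srxn1, Hmox1 and the cystine transporter Slc7a11 changed by 3.42 to 5.04 in log2, and the oxidative pentose phosphate enzymes G6pdx and Pgd by 1.73 ± 0.42 and 2.40 ± 0.27. The core TGACNNNGC of the antioxidant response element, searched on both strands, was in 15.5% of promoter windows of genes called higher, 12.0% of those called lower and 14.3% of all tested. The leave-one-out fits gave 18, 18, 8, 5 and 7 genes higher.

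In the prostaglandin and lipoxygenase list 2 of 14 genes rose and 3 fell, against 7.05% and 7.22% of all tested genes. Ptgs2, the inducible cyclooxygenase that TPA is known to raise, went from 22.3 and 136.0 CPM to 1509, 3003 and 3335 CPM (log2 change 5.05 ± 0.90, adjusted p = 0.0199). Ptger4, a receptor for prostaglandin E2, fell from 95.4 and 119.2 CPM to 13.5, 11.7 and 10.6 CPM (-3.17 ± 0.26, adjusted p = 0.00461). Of the lipoxygenases, which make other arachidonate products in the barrier, Alox12e fell from 19.6 and 88.2 CPM to 1.16, 0.152 and 0.159 CPM and Alox12 by 3.62 ± 0.53, while Alox12b had no mock count and 1.43 to 5.46 CPM in tumors, at least 8.26-fold higher. Ptger4 was called in all leave-one-out fits, which gave 4, 5, 0, 0 and 0 genes of the list higher and 3, 4, 2, 1 and 1 lower.

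Of 32 genes of the TGF-β family 4 rose and 4 fell, against 7.05% higher and 7.22% lower over all tested genes. Inhba, the activin A subunit, went from 3.18 and 1.62 CPM to 149.2, 327.9 and 339.4 CPM (log2 change 6.78 ± 0.61, adjusted p = 0.00505), and its antagonist follistatin (Fst) from 45.0 and 38.8 CPM to 717.0, 968.4 and 1179 CPM. Tgfb1 and Tgfb3 rose by 1.67 ± 0.29 and 2.41 ± 0.58. On the BMP branch Bmp4 fell from 61.9 and 59.1 CPM to 2.12, 4.24 and 6.02 CPM (-3.85 ± 0.42), and the BMP target Id3 and the decoy receptor Bambi fell by 1.56 ± 0.30 and 3.59 ± 0.91, as did the activin receptor gene Acvr2b by 1.99 ± 0.43. Neither Bambi nor Acvr2b was called without mock replicate 1. The leave-one-out fits called 9, 9, 2, 2 and 2 of the list higher and 5, 8, 1, 0 and 1 lower, with Inhba and Fst higher in all.

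**Figure D4:**
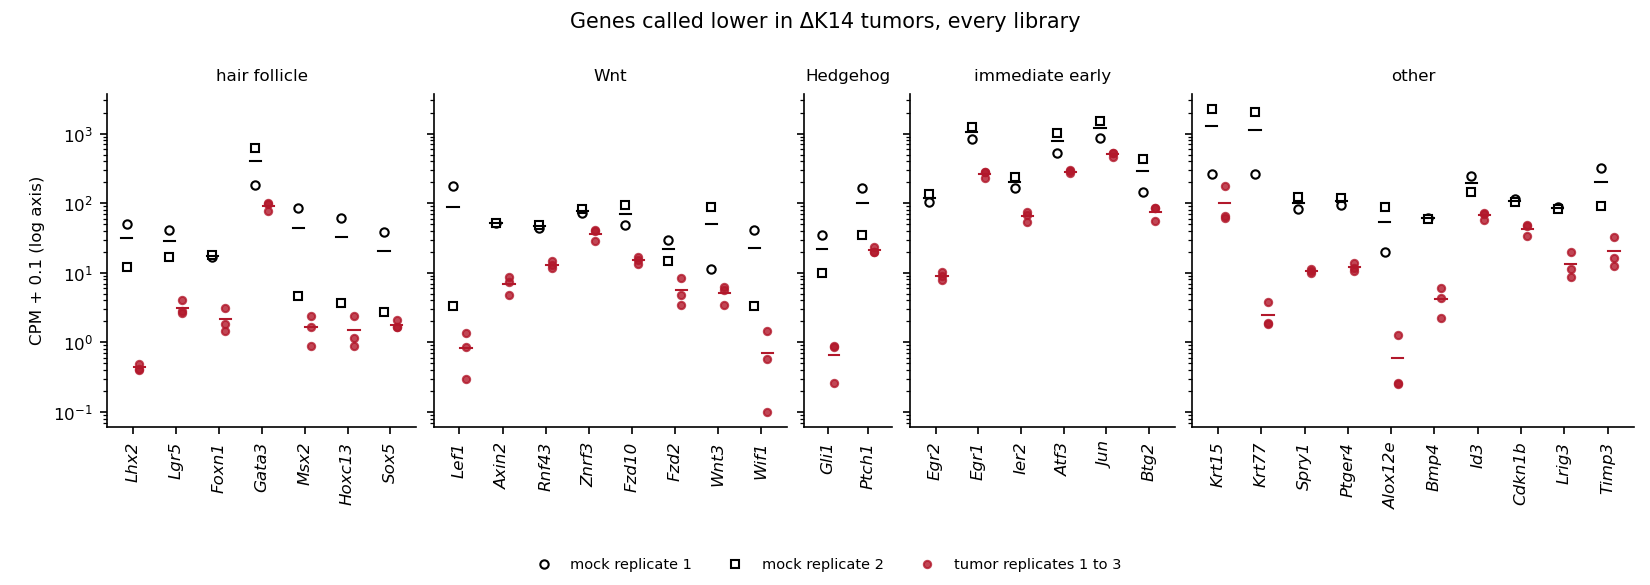
CPM plus 0.1 (y axis, log) in each of the 5 ΔK14 libraries for genes called lower in tumors (x axis, grouped by kind), with the same symbols as for the genes called higher. For every gene shown, as for every gene called lower, all 3 tumors lie below both mock libraries. The mock libraries lie far apart for Lef1 (175.4 and 3.23 CPM) and close together for Axin2 (51.4 and 51.0 CPM).

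Of 22 tested hair follicle genes 7 fell and 2 rose, with a median of -2.60. Mock replicate 1 held more hair transcripts than replicate 2, and the part of that difference in these calls was not tested. Lhx2, a stem cell factor of the follicle, had 50.7 and 12.0 CPM in mock and 0.386, 0.303 and 0.317 CPM in tumors (log2 change -6.46 ± 0.75, adjusted p = 0.00749). Lgr5 had 40.6 and 16.8 CPM in mock and 2.54 to 3.94 CPM in tumors, and Foxn1, the factor mutated in nude mice, 16.6 and 17.8 CPM against 1.35 to 3.03 CPM. These 3 lay below both mock libraries by a wide margin. Sox5, Msx2 and Hoxc13 were also called, but without mock replicate 1 they were not. Gata3, which guides inner root sheath fate, fell by 2.15 ± 0.49 and lost its call without mock replicate 2. Of the 16 inner root sheath and hair shaft genes in the list only 4 passed the filter and none was called. Sox9, which marks follicle stem cells and also invasive skin tumors, rose from 88.6 and 62.3 CPM to 219.6, 232.8 and 261.7 CPM, and Cd34, a bulge marker, from 10.03 and 11.3 CPM to 117.4, 48.0 and 193.7 CPM. The leave-one-out fits gave 7, 9, 1, 0 and 1 lower and 6, 4, 0, 1 and 0 higher.

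Of 33 tested genes of the Wnt pathway, which instructs follicle growth, 8 fell and 1 rose. Among the factors, targets and inhibitors 5 of 12 fell, and among the ligands and receptors 3 of 21. Axin2, the most general target, had 51.4 and 51.0 CPM in the mock libraries, which differ little, and 4.63, 8.49 and 7.29 CPM in tumors (log2 change -2.90 ± 0.33, adjusted p = 0.00709). Rnf43 and Znrf3, which remove Frizzled receptors, fell by 1.82 ± 0.26 and 1.11 ± 0.27, and the receptor gene Fzd10 by 2.23 ± 0.34. Lef1 went from 175.4 and 3.23 CPM to 0.193, 0.758 and 1.27 CPM, a call lost without mock replicate 1. Wnt3 went from 11.3 and 87.5 CPM to 3.33 to 6.17 CPM, a call lost without mock replicate 2. Ctnnb1 (β-catenin) changed by -0.25 ± 0.35. Dkk3 rose by 2.09 ± 0.38. Of 7 Hedgehog genes 3 fell, among them the target Gli1, from 34.5 and 9.69 CPM to at most 0.771 CPM, and the receptor Ptch1, which was not called without mock replicate 1. In the leave-one-out fits 6, 11, 1, 0 and 1 Wnt genes and 1, 5, 0, 0 and 0 Hedgehog genes were lower. The 11 tested Notch genes gave no call in either direction, and Notch1 changed by 0.09 ± 0.39.

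None of 30 proliferation genes was called (median 0.27). Mki67 had 726.5 and 74.6 CPM in mock and 581.9, 335.2 and 279.3 CPM in tumors, and Mcm4, a subunit of the replicative helicase, 131.2 and 43.9 CPM against 188.6, 121.7 and 147.4 CPM. Mock and tumor values overlapped for both. Without mock replicate 1, 17 of 30 were called higher, and without mock replicate 2, 1 was called lower. Of 15 p53 targets and CDK inhibitors 3 rose and 1 fell, against 7.05% and 7.22% of all tested genes. Cdkn2a, the Ink4a/Arf locus, had 1 mock count and 10.4, 19.9 and 29.96 CPM in tumors, a ratio of 149 (26.5 to 5880). Mdm2 and Ccng1, both p53 targets, changed by 1.92 ± 0.43 and 2.62 ± 0.29, Cdkn1a (p21) by 1.17 ± 0.47 without a call, and Cdkn1b (p27) fell by 1.34 ± 0.26. The leave-one-out fits gave 3, 8, 3, 0 and 2 higher and 2, 2, 0, 0 and 0 lower.

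The remaining lists had at most 5 genes called higher and at most 2 called lower. Over all tested genes 7.05% were called higher and 7.22% lower. The share called higher exceeded this for amino acid transport and protein folding. Both shares did, by less, for the retinoid and the junction genes. Among genes for amino acid transport and protein folding 5 of 20 rose, Hsp90b1, Pdia4, Calr, Asns and Slc38a2, by 1.04 to 1.75 in log2, with 11, 8, 0, 0 and 0 in the leave-one-out fits. Of 14 retinoid and aryl hydrocarbon genes, the retinoic acid carrier Crabp2 (3.18 and 6.78 CPM in mock, 68.1, 64.1 and 63.4 CPM in tumors) and Nqo1 rose, and Cyp1b1 and Rarb fell, with 8, 6, 2, 1 and 2 higher and 4, 2, 0, 0 and 0 lower in those fits. Of 24 junction genes, the desmosomal cadherins Dsc2 (10.3 and 6.78 CPM in mock, 117.4, 122.9 and 109.7 CPM in tumors) and Dsg3 rose, and Dsg1a and the tight junction protein Cldn1 fell, against 5, 8, 1, 1 and 1 higher and 3, 2, 0, 0 and 0 lower. None of 23 cholesterol and sebaceous genes was called, while 9 were higher without mock replicate 1. Of 14 interferon and MHC class I genes only Stat2 was called, lower by 2.17 ± 0.50. Mock replicate 2 was high in this list (B2m 1887 CPM against 254.2 CPM in replicate 1 and 694.5 to 777.6 CPM in tumors), and without replicate 1, 10 genes were called lower, whereas without replicate 2, 4 were called higher.

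Genes outside the lists that had the smallest p or the largest change were of varied kinds. Those that rose included Elk3, an ETS factor (3.18 and 3.55 CPM in mock, 65.4, 80.6 and 83.1 CPM in tumors), Ltbp1, which stores latent TGF-β in matrix (log2 change 4.40 ± 0.33), and Sh2d5 (4.93 ± 0.40). The keratinocyte protease Tmprss11b had no mock count and 43.0, 39.9 and 60.2 CPM in tumors, at least 114-fold higher. Gm44383 had none and 200.7, 220.6 and 144.3 CPM, at least 451-fold higher, but this miRNA annotation (GRCm38 chr15:101678032-101678160, plus strand) lies inside Krt6b on the minus strand, and its reads cannot be told apart from those of Krt6b. 2610528A11Rik went from 3 mock counts to 121.1, 135.8 and 84.02 CPM, a ratio of 272 (92.9 to 1319). Bounds of at least 121-fold, 115-fold and 105-fold held for Gm5416, BC117090 and the pseudogene Gm18445.

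Those that fell were as varied. Pard3b, a polarity scaffold, went from 16.2 and 23.6 CPM to 0, 0.152 and 0.159 CPM (adjusted p = 0.00461), and Dapl1, an early differentiation gene, from 60.4 and 140.2 CPM to 3.09, 2.43 and 3.17 CPM. Hopx, a homeodomain protein of quiescent stem and differentiating cells, went from 66.6 and 59.8 CPM to 4.63, 7.73 and 7.61 CPM, and Tnfrsf19, a Wnt-regulated receptor of the follicle, from 87.1 and 286.2 CPM to 0.771, 2.58 and 1.90 CPM. Myh14, Cyfip2 and Igfbp5 fell by 4.48 to 6.22 in log2. Bbox1, the last enzyme of carnitine synthesis, went from 30.8 and 284.9 CPM to 0, 0.152 and 0.159 CPM. Skint5 and Skint7, whose family selects epidermal γδ T cells, had 4.16 and 40.7 CPM and 3.67 and 42.0 CPM in mock and at most 0.159 CPM in tumors. Hoxd8 had 37.4 and 3.23 CPM in mock and no count in any tumor, at least 123-fold lower. Hist1h2al, annotated as a processed pseudogene of a histone gene, at 18.8 and 13.2 CPM in ΔK14 mock, was at or below 1.37 CPM on average in the treated ΔK14 group and in the fl/fl mock and tumor groups as well, so here the ΔK14 mock libraries were the ones apart.

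The skin next to the tumors (labelled treated ΔK14, with a cell type label that calls it tumoral although the methods call it nontumoral) lay closer to mock skin than to tumors for most of these genes. On the 17-library log scale the treated mean was nearer to the mock mean for 971 of the 1059 genes called higher (91.7%) and for 908 of the 1085 called lower (83.7%), with median positions of 0.168 and 0.183 on a line from 0 (mock) to 1 (tumor). In treated skin Areg was at 17.02 ± 6.87 CPM (SD, n = 3), Ereg at 3.69 ± 3.37 CPM, Krt6a at 383.7 ± 204.8 CPM and S100a8 at 119.4 ± 114.5 CPM. The tumor and mock libraries that set this line are those that chose the genes.

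The fl/fl mice supply the same contrast with Zfp36 present and with no library in common. There, 632 of 15394 tested genes were called, or 4.11% (3 libraries a group). Of the 1059 genes called higher in ΔK14 tumors, 272 were also called higher there (25.7% of the ΔK14 calls and 79.5% of the 342 in fl/fl), and of the 1085 called lower, 174 (16% and 60% of 290). None was called in the opposite direction. Only 963 of the 1059 and 1028 of the 1085 were tested in fl/fl, and the percentages of ΔK14 calls include the rest. Among genes described above, the log2 changes in fl/fl were 7.56 for Ereg (adjusted p = 0.00049), 4.11 for Areg (0.00671), 7.04 for Mmp13 (0.00671), -3.63 for Axin2 (0.00671) and 4.67 for Slc16a1 (0.00319). Others were not called in fl/fl, with -1.77 for Egr2 (adjusted p = 0.102), 6.76 for Gsta4 (0.0628), 2.10 for Ltbp1 (0.211) and -0.10 for Igfbp5 (0.96). These 9 genes were picked as examples after their values were seen. The difference between the genotypes was tested gene by gene in 1 fit of the 4 groups, and edgeR's quasi-likelihood test called 0 of 17388 genes (0% of those tested), with 1423 at an unadjusted p under 0.05. DESeq2's Wald test called 30, of which 14 had a positive and 16 a negative difference (log2 change in ΔK14 minus that in fl/fl), and without fl/fl tumor replicate 1 the quasi-likelihood test called 23. The genes named next were chosen from these alternatives after their values were seen, and in the main test each had an adjusted p of 0.535.

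Ero1l had 373.0, 346.1 and 448.5 CPM in ΔK14 tumors and 113.9, 87.7 and 91.1 CPM in fl/fl tumors on the 17-library scale, with mock libraries at 22.0 to 31.4 CPM in both genotypes. Its change was larger in ΔK14 by 2.14 ± 0.35 in log2 in the main test and by 2.16 in DESeq2 (adjusted p = 2.32e-05 by DESeq2). Pfkfb3 had 179.8, 153.0 and 141.2 CPM in ΔK14 tumors and 44.2, 23.7 and 23.6 CPM in fl/fl tumors. Its change was larger by 2.91 ± 0.47 in the main test and by 2.94 in DESeq2 (adjusted p = 0.000121 by DESeq2). Vegfa had 362.7, 503.0 and 597.5 CPM against 181.6, 98.2 and 105.9 CPM (adjusted p = 0.0229 by DESeq2). ΔK14 and fl/fl tumors did not overlap for these 3 genes, which were picked with their values known. The share of all tested genes without such overlap was not counted. Ero1l and Pfkfb3 were also the only calls when all libraries shared 1 fit (adjusted p = 0.0301 each). In the other direction Naaladl2 had 0.447, 0.182 and 0.380 CPM in ΔK14 tumors and 3.01, 37.4 and 28.5 CPM in fl/fl tumors. Cst6 had 4.25, 5.81 and 5.51 CPM against 4.52, 202.5 and 235.3 CPM. For both, fl/fl tumor replicate 1 was far below the other fl/fl tumors. That library had the lowest total of the 17, 2808550 counts, and the fewest genes with a count, 19219. It also had the highest mitochondrial share, 11.6%. Its part in the fl/fl and genotype results beyond leaving it out was not tested.

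**Figure D5:**
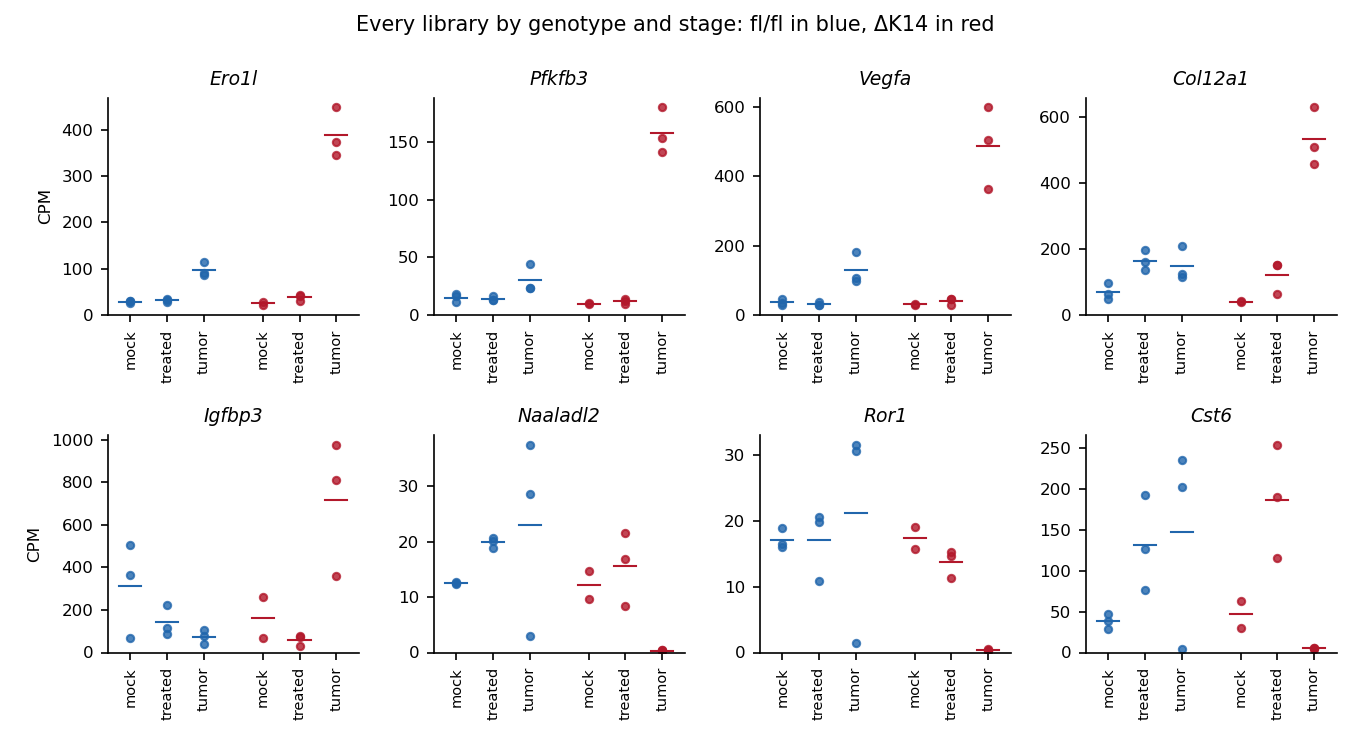
CPM on the common scale of the 17 libraries (y axis, linear from 0) in each library of the mock, treated and tumor groups (x axis), fl/fl in blue and ΔK14 in red, with lines at the group means. The 8 genes were chosen from the alternative tests after their values were seen. The ΔK14 tumors lie above the fl/fl tumors for Ero1l, Pfkfb3 and Vegfa, and 1 fl/fl tumor lies far below the others for Naaladl2, Ror1 and Cst6.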

How the data were processed

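RNA of sorted mouse epidermal cells was sequenced, and the authors deposited 1 table of raw read counts per Ensembl gene. The submitters' processing notes name Trimmomatic 0.36, STAR 2.5.3, HTSeq 0.9.1, DESeq2 and the mm10 build. Whether counting used strand is not given in the sources used here, so overlapping and antisense genes cannot be told apart. Columns were matched to samples by title. The third ΔK14 mock column held the same counts as the second in all genes and was counted with it as 1 library. Totals were 2973405 and 3569609 counts in mock and 5412205 to 7069660 in tumors.

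Counts were filtered with filterByExpr, scaled by TMM and tested with edgeR 4.0.16 (quasi-likelihood test, Benjamini-Hochberg adjustment) in R 4.3.3, using the 5 libraries for the main comparison and the 4 mock and tumor groups for the genotype difference. Calls required both an adjusted p under 0.05 and a change of more than 2-fold, and SE were derived from the log2 change and its F statistic. The steps were also run on simulated data. These had the same spread in every library, which the mock and tumor libraries here did not. CPM were computed from the scaled library sizes. A group without counts was set to 3 counts for a bound. Ratios over 1 to 3 mock counts carry an exact interval for counting error only. Alternatives were DESeq2 1.42.0, RLE scaling, other filters and sample sets, edgeR's exact test, glmTreat, the replicate block and leaving out each library. Promoter windows came from RefSeq, and 3′UTRs from GENCODE on GRCm38.

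The members and gene lists were chosen with earlier results of these data known. Genes were named if they were Zfp36 or a paralog, among the 15 smallest p in each direction, among the 10 largest changes in each direction with a mean of at least 20 CPM in the higher group, or members of a list where that list is described. Some members of the lists are not reported here.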

Additional observations from a re-analysis of the deposited data

How the results depend on the processing

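The 2144 calls became 4154 without a low-count filter, 3619 with the identical mock column counted as a library, 3269 with edgeR's exact test (1452 higher, 1817 lower) and 566 when glmTreat tested against a fold change of 2 (360 higher, 206 lower). Leaving out 1 library gave 101 to 4573 calls. DESeq2 gave 2767, RLE scaling 2061, a mean count of at least 10 gave 1789, 1 fit of all libraries 3074 and the 3 ΔK14 groups together 3087. In the alternatives that kept all libraries, 512 genes stayed called throughout (349 higher, 163 lower). The genotype difference had 0 calls, against 30 with DESeq2, 188 without a filter, 2 in 1 fit of all libraries and 0 to 23 with 1 library left out, the 23 without fl/fl tumor replicate 1. No named gene that was called changed direction. The causes of these shifts were not tested.

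Replicate numbers were shared between groups, but nothing ties same-numbered samples to 1 mouse or day. Deviations of same-numbered mock and tumor libraries correlated at 0.138 and 0.169, with 2 pairs only. With the replicate block the count of calls was 938 (580 higher, 358 lower), and the genotype difference had 1 call.

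With 2 mock libraries of the lowest depth in the comparison, genes near the filter were measured least precisely, and a missing call does not show equal levels.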
